A study of Drosophila melanogaster with 12 samples.

Results

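The 72 genes described here encode proteins of the mitochondrial ribosome of *Drosophila melanogaster*. They were chosen by symbol, as every gene whose symbol starts with mRpL or mRpS followed by a number and whose mean normalized count is at least 10 in eye and in wing discs. The tables hold 17208 genes, and 9465 of them reach this level in both tissues. The pattern matched 72 symbols and 0 of them fell below the minimum. All 72 carry the same symbol in the BDGP6.54 annotation, 47 with the symbol of large subunit proteins (mRpL) and 25 with that of small subunit proteins (mRpS). Subunits below follow the symbol, although the human counterparts of *mRpS18A* and *mRpS30* sit in the large subunit.

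Mitochondria translate their own mRNAs on a ribosome of bacterial descent. Its ribosomal RNAs come from the mitochondrial genome, whereas its proteins are encoded in the nucleus, made in the cytosol and imported. The large subunit joins amino acids and releases the chain at the inner membrane, and the small subunit reads the mRNA. The products are core subunits of the respiratory chain and of ATP synthase. In *Drosophila*, the small subunit genes *tko* and *bonsai* are known from mutants with weak mitochondrial function, and their symbols fall outside the pattern.

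RNA was taken from discs of late larvae, in the third instar, in which *fuss*, a gene of the Ski/Sno family, was or was not overexpressed. For eye antennal discs there were 3 libraries of GMR-Gal4 > w1118 and 3 libraries of GMR-Gal4 > UAS-fuss, with 40 discs in each. For wing discs there were 3 libraries of nub-Gal4 > w1118 and 3 libraries of nub-Gal4 > UAS-fuss, with 30 discs in each. GMR-Gal4 drives expression behind the morphogenetic furrow of the eye and nub-Gal4 in the wing pouch, so that other cells of each disc do not carry Fuss from the transgene. One label field of the eye libraries names nub-Gal4, and the genotype field, which was followed here, names GMR-Gal4. The level of each gene is the mean normalized count that the authors computed over the 6 libraries of a tissue, controls and *fuss* overexpression together. Control and overexpression are therefore not compared here. Values of single libraries were not used here, and the levels therefore stand without an error, the depth of single libraries is unknown and no difference below was tested.

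The pools carried the genes that mark their tissue. All 9 markers of the eye disc were higher in eye than in wing discs, by 4.38 to 180 times, and all 5 markers of the wing disc were higher in wing discs, by 1.34 to 53.5 times. These folds are relative to the median gene of the tables, whose wing level was 1.14 times its eye level. The counts below are not scaled in this way. Other cell types differed between the pools as well. The summed mean normalized count of 4 haemocyte markers was 8724 in eye and 3044 in wing discs, that of 2 glial markers 2121 and 398, that of 3 fat body markers 85000 and 244970, that of 3 myoblast markers 2757 and 5852, and that of 2 tracheal markers 352 and 2809. The mean normalized count of *fuss* was 16643 in eye and 10363 in wing discs over both genotypes. The means of all genes summed to 29977881 in eye and 34175754 in wing discs.

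The mitochondrial ribosomal protein genes were expressed in both tissues without exception. The mean normalized count ran from 297 to 2167 in eye discs, with a median of 694, and from 391 to 2848 in wing discs, with a median of 854. The lowest value in both tissues was that of *mRpS24* and the highest that of *mRpS30*, which has the longest transcript of the 72 genes (2078 bases). Together the genes held 0.195% of the summed means in eye discs and 0.211% in wing discs.

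Since longer transcripts give more reads, genes were compared by the mean normalized count per kilobase of the longest annotated transcript. On this scale the median gene of the mitochondrial ribosome stood at 912 in eye discs and at 1124 in wing discs. The median of 8856 protein coding genes was 500 in eye and 548 in wing discs. The ratio of these medians was 1.82 in eye and 2.05 in wing discs. In eye discs 70 of the 72 genes lay above the protein coding median, 19 above its 75th percentile of 1082 and 0 above its 90th percentile of 2443. In wing discs 71 genes lay above the median, 28 above the 75th percentile of 1228 and 1, *mRpL12*, above the 90th percentile of 2845. Thus nearly all of the genes lay above the protein coding median and below the 90th percentile. The comparison rests on the longest annotated transcript, and 76.4% of the members but 38.5% of the protein coding genes have a single transcript. The genes sat close together, with 69 of 72 within 2 times of the members' median in eye discs and 69 of 72 in wing discs. The 90th percentile of the members was 1.93 times their 10th percentile in eye discs and 2.12 times in wing discs.

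**Figure D1:**
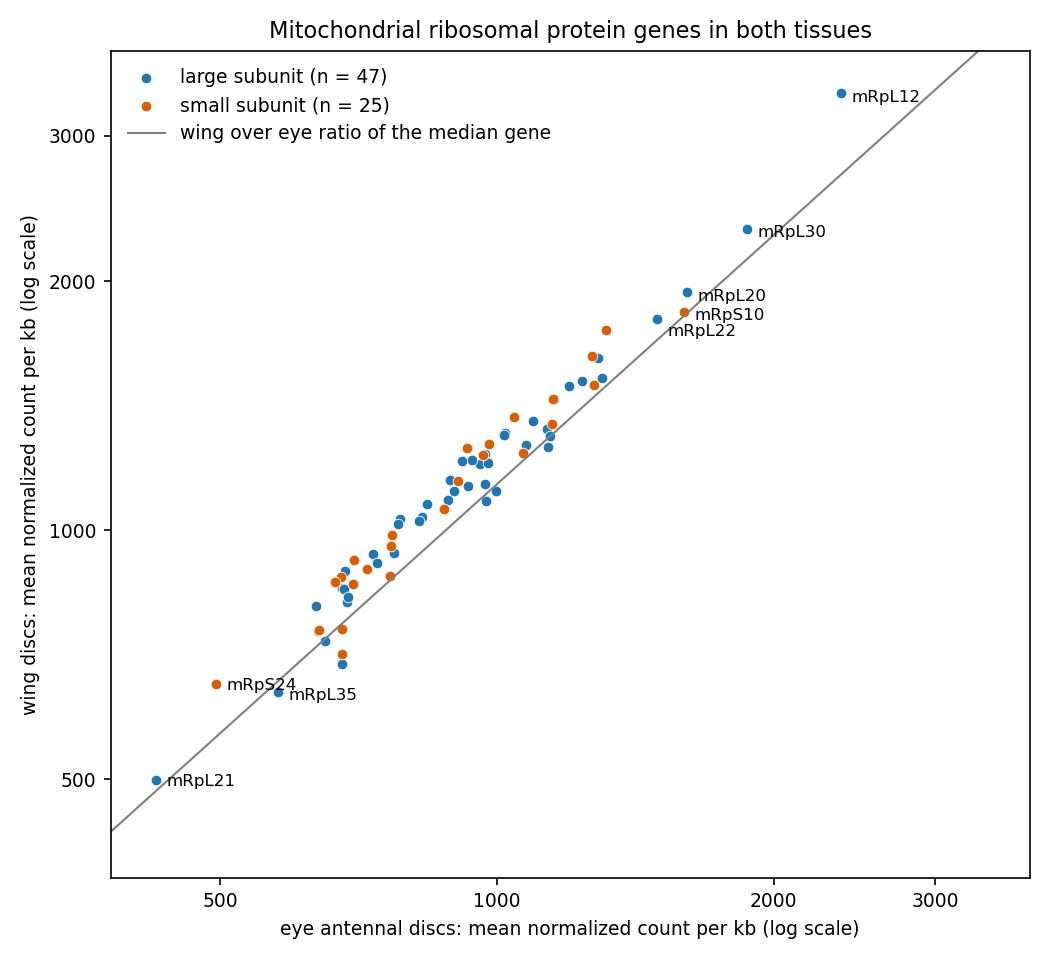
Each point is 1 gene of the mitochondrial ribosome, by its mean normalized count per kilobase in eye antennal discs (horizontal) and wing discs (vertical), both on log scales. Blue points are the 47 genes of the large subunit, orange points the 25 of the small subunit, and the grey line is the wing over eye ratio of the median gene of the tables (1.14). *mRpL12* stands at the upper end in both tissues and *mRpL21* at the lower end.

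The 6 genes of highest level per kilobase were the same in both tissues. The first was *mRpL12* (FBgn0011787, chromosome arm 3L from 8956791 to 8957584 of BDGP6.54), with a mean normalized count of 1747 in eye and 2490 in wing discs, or 2367 and 3374 per kilobase. Its protein forms the mobile stalk of the large subunit to which translation factors bind. In bacteria this protein is present in several copies per ribosome, unlike the other ribosomal proteins.

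The next was *mRpL30* (FBgn0029718, chromosome X from 4647871 to 4648646 of BDGP6.54), with 1870 per kilobase in eye and 2314 in wing discs. *mRpL20*, whose bacterial counterpart is needed early in the assembly of the large subunit, had 1608 and 1940 per kilobase. *mRpS10*, a protein of the head of the small subunit, had 1599 and 1837. The remaining members of the upper group were *mRpL22*, whose bacterial counterpart lines the exit tunnel, with 1495 and 1798 per kilobase, and *mRpS7*, another protein of the head, with 1314 and 1744. The *mRpL12* value was thus well apart from the rest, and the others followed each other in small steps.

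At the lower end, *mRpL21* (FBgn0036853, chromosome arm 3L from 19253290 to 19255061 of BDGP6.54) had 426 per kilobase in eye and 499 in wing discs. Its place depends on the annotated length. The longest transcript has 1696 bases, of which 603 are coding, and per kilobase of coding sequence the gene ranked 35 of 72 in eye and 39 in wing discs. *mRpS24* (FBgn0039159, chromosome arm 3R from 24162829 to 24163545 of BDGP6.54), whose human counterpart belongs to the head of the small subunit, had 495 and 651 per kilobase and was the last of 72 per kilobase of coding sequence in both tissues. Of its 600 exon bases, 332 are shared with *TBC1d7* on the opposite strand. *mRpL35* had 577 and 638 per kilobase.

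The lowest 6 genes of the eye discs further held *mRpL54* (636 per kilobase), *mRpL17* (639) and *mRpS18B* (640). Those of the wing discs further held *mRpL10* (689), *mRpS31* (709) and *mRpL18* (735). Of these, *mRpL17* and *mRpL54* also depend on the annotated length, since per kilobase of coding sequence they had 1321 and 1096 in eye discs and ranked 23 and 43 of 72. Within each tissue these values lie within a few percent of each other, and 3 of the lowest 6 genes were common to both tissues. The order among them cannot be read without an error.

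By symbol, large and small subunit genes had similar median levels. In eye discs the median per kilobase was 930 for the large and 876 for the small subunit, a ratio of 1.06. In wing discs the medians were 1131 and 1062, also a ratio of 1.06. Per kilobase of coding sequence the ratio was 1.04 in eye and 0.93 in wing discs, so that the side of the small difference in wing discs rests on the length used. With *mRpS18A* and *mRpS30* counted in the large subunit, per kilobase of transcript, it was 1.22 in eye and 1.15 in wing discs.

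A further division is by descent. Of the 72 proteins, 45 are related to a protein of the bacterial ribosome and 27 are specific to mitochondria. The former include *mRpS18A* and *mRpS18B*, whose human counterparts bear names of mitochondria specific proteins. The median per kilobase of the genes with a bacterial counterpart was 970 in eye and 1203 in wing discs, and that of the mitochondria specific genes 839 and 1062. The ratio was 1.16 in eye and 1.13 in wing discs, also with *mRpS18A* and *mRpS18B* counted as mitochondria specific. The mitochondria specific genes lay in a narrower range, from 636 to 1303 in eye discs against 426 to 2367 for those with a bacterial counterpart.

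**Figure D2:**
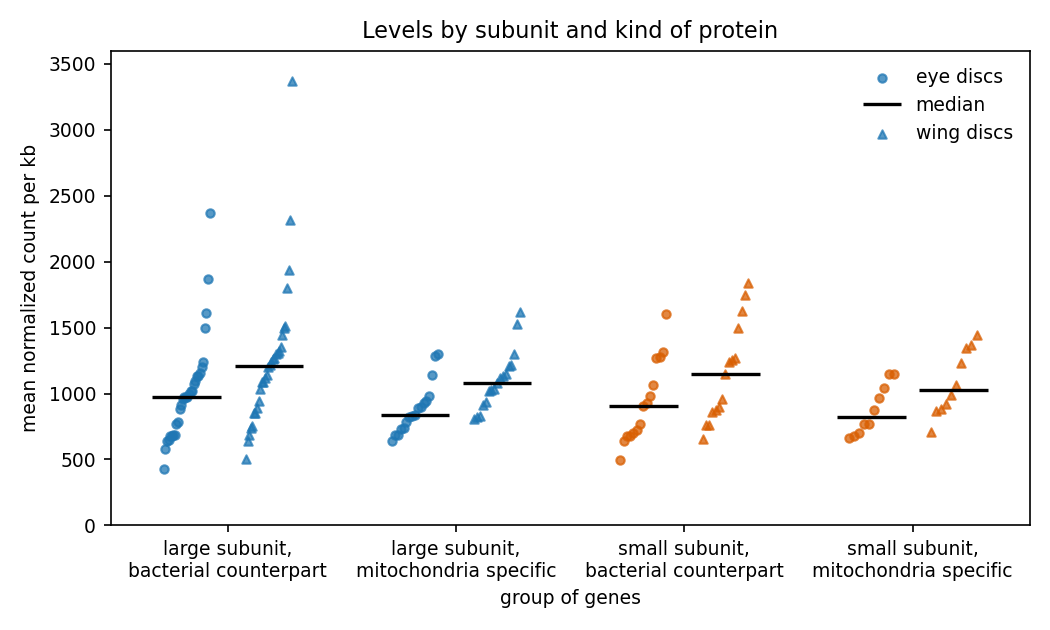
Mean normalized count per kilobase of each gene, by subunit and by kind of protein. Circles are eye discs, triangles wing discs, and black bars the median over the genes of a group. Medians in eye discs lie between 822 and 972 in the 4 groups, and those in wing discs between 1025 and 1208.

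The genes *mRpS18A*, *mRpS18B* and *mRpS18C* encode copies of the same bacterial protein. *mRpS18A* (chromosome arm 3R from 8561917 to 8562593 of BDGP6.54) had a mean normalized count of 569 in eye and 739 in wing discs. *mRpS18B* (chromosome arm 2L from 20096329 to 20097253) had 552 and 655. *mRpS18C* (chromosome arm 3R from 30423974 to 30424556) had 405 and 506. In human mitochondria these proteins hold separate places in the ribosome, and the counterpart of *mRpS18A* sits in the large subunit. Per kilobase the levels were 979, 640 and 767 in eye discs and 1272, 759 and 958 in wing discs, so that *mRpS18A* was first and *mRpS18B* last in both tissues. The genes *tko* and *bonsai*, which the pattern left out, had mean normalized counts of 907 and 995 in eye discs and of 1111 and 1216 in wing discs. Per kilobase both lay within the range of the 72 genes, with 568 and 1015 in eye and 696 and 1240 in wing discs.

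Levels were also compared by site in the ribosome. The sites were assigned from bacterial and human ribosomes after the values had been seen, and the lists of genes may be incomplete. The 5 genes assigned to the small subunit head were *mRpS7*, *mRpS9*, *mRpS10*, *mRpS14* and *mRpS24*, with no mitochondria specific gene among them. They ran from 495 (*mRpS24*) to 1599 (*mRpS10*) per kilobase in eye discs. The 3 genes assigned to the platform, *mRpS6*, *mRpS11* and *mRpS18C*, ran from 678 to 928. The 7 genes of the exit tunnel and its mouth ran from 639 (*mRpL17*, the gene with 1321 per kilobase of coding sequence) to 1495 (*mRpL22*). The 4 genes around the peptidyl transferase centre, *mRpL2*, *mRpL3*, *mRpL16* and *mRpL27*, ran from 682 (*mRpL27*) to 1197 (*mRpL16*). The place of *mRpL27* also depends on the annotated length, with 1477 per kilobase of coding sequence. At the stalk, *mRpL12* stood at 2367 per kilobase in eye discs, and its neighbours *mRpL10*, which holds the stalk, and *mRpL11*, at the base of the stalk, both at 678.

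The second question was how the levels differ between eye and wing discs. The tables of the tissues were normalized separately, and the tissues also differ in driver line, in discs per library and in sequencing lane (2 eye libraries on lane 5 and 4 on lane 6, 4 wing libraries on lane 5 and 2 on lane 6). Tissue and these differences cannot be told apart. As deposited, the median gene of the tables had a wing level 1.14 times its eye level. Ratios were therefore taken relative to this median gene, which was set to 0 on the log2 scale.

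All 72 genes had a lower mean normalized count in eye than in wing discs as deposited. Relative to the median gene 64 were on the wing side and 8 on the eye side. With the cytosolic ribosomal protein genes as the reference instead, 44 were on the wing side. The share of all genes on that side is not given for this reference, so the 44 cannot be set against it. Relative to the median gene 50.0% of all 9465 genes are on the wing side by construction. The median log2 ratio of eye over wing was -0.13, a wing level 1.09 times the eye level after scaling to the median gene. The ratios of the genes were close to each other, from -0.33 to 0.16 with an interquartile range of 0.12. Their quartiles (-0.17 and -0.05) were no closer than those of oxidative phosphorylation subunit genes (-0.15 and -0.06) or cytosolic ribosomal protein genes (-0.14 and -0.07). Over all genes the interquartile range was 0.36 (25th percentile -0.16, 75th percentile 0.20), and over the 7423 genes with a mean of at least 100 it was 0.27. Eye and wing levels of the members thus kept nearly the same order (Pearson's r = 0.99 between log2 means over 72 genes, which share their lengths in both tissues).

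With a log2 ratio of at least 0.32 in size as the threshold, 1 of the 72 genes was higher in wing discs, where 13.4% of all genes are, and 0 were higher in eye discs, where 19.0% of all genes are. At a fold of 1.5 the members numbered 0 in both directions, against 7.73% of all genes for the wing and 12.8% for the eye. The members therefore lay almost wholly inside these limits. As the thresholds are not set against a spread between libraries, these counts say nothing of statistical significance. Without a scaling between the tissues, 30 genes (41.7%) passed the threshold of 0.32 toward the wing, where 27.7% of all genes did, and with the cytosolic ribosomal protein genes as the reference 0 did, against 10.2% of all genes.

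**Figure D3:**
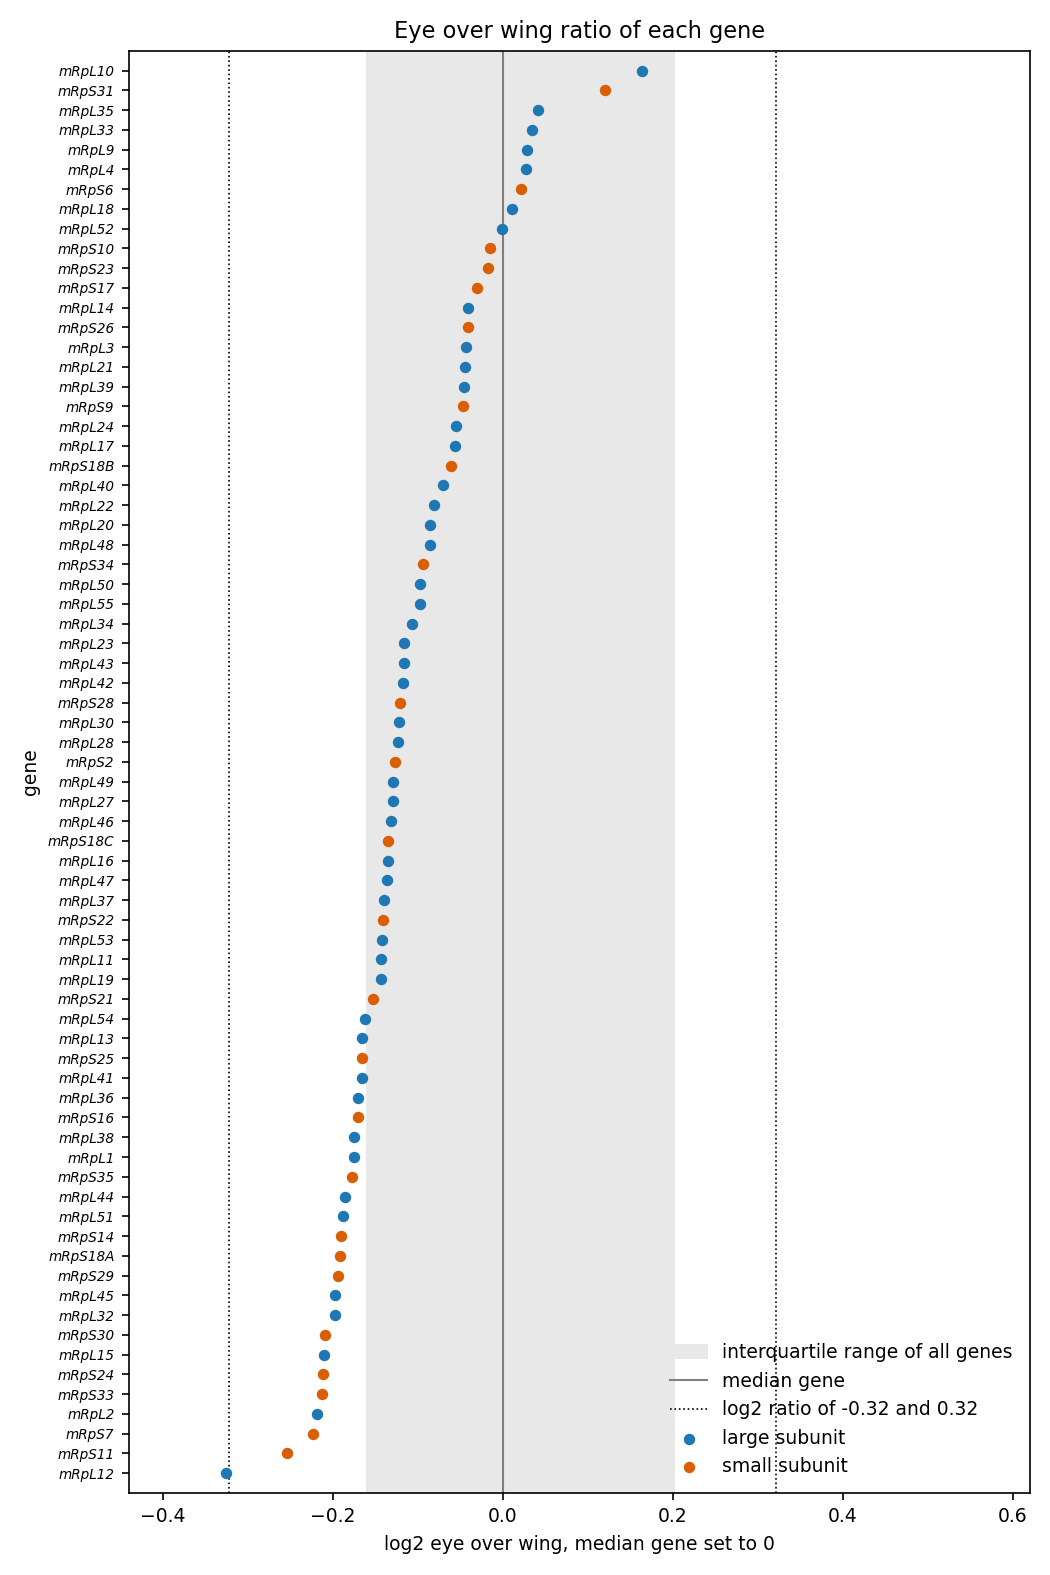
The log2 ratio of eye over wing mean normalized counts of each of the 72 genes, with the median gene of the tables set to 0. The grey band is the interquartile range of all genes (-0.16 to 0.20) and dotted lines mark log2 ratios of 0.32 in size. Most genes lie left of 0, and only *mRpL12* lies beyond a dotted line.

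The gene past this threshold was *mRpL12*, with mean normalized counts of 1747 in eye and 2490 in wing discs and a log2 ratio of -0.33. It was followed by *mRpS11* (677 and 917, log2 ratio -0.25), a protein of the platform of the small subunit. *mRpS7* of the head had counts of 1205 and 1600 and a log2 ratio of -0.22. These genes stood furthest to the wing side. The ratio of *mRpL12* (-0.326) was only just past the threshold (0.322 in size), and its distance from the others cannot be read without an error.

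*mRpL2*, whose bacterial counterpart binds the RNA of the peptidyl transferase centre, had mean normalized counts of 952 in eye and 1260 in wing discs and a log2 ratio of -0.22. The small subunit genes *mRpS33* (343 and 453) and *mRpS24* (297 and 391) both had a log2 ratio of -0.21. Of the 6 genes furthest to the wing side 4 belong to the small subunit, as do 25 of all 72 members. The next gene, *mRpL15* of the large subunit, also had a log2 ratio of -0.21, so that this count cannot be read without an error. Over all members the median log2 ratio was -0.12 in the large and -0.14 in the small subunit.

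On the eye side, *mRpL10* (FBgn0031231, chromosome arm 2L from 203779 to 204782 of BDGP6.54) stood first, with mean normalized counts of 613 in eye and 622 in wing discs. Its log2 ratio was 0.16, an eye level 1.12 times the wing level after scaling. Next was *mRpS31*, a mitochondria specific protein, with 866 and 906 and a log2 ratio of 0.12. The other genes above the median gene lay close to it, among them *mRpL35* (434 and 479, log2 ratio 0.04), *mRpL33* (396 and 440, 0.03), *mRpL9* (773 and 861, 0.03) and *mRpL4* (1011 and 1128, 0.03).

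The genes assigned to the stalk thus included both ends of this order. *mRpL12* had the lowest and *mRpL10* the highest log2 ratio of the 72 genes, 0.49 apart, with *mRpL11* between them at -0.14 (498 in eye and 625 in wing discs). The range of the stalk is therefore that of all 72 genes, and no other site can exceed it. As the sites were assigned after the values had been seen, no difference between sites can be read from the ranges. Among the genes assigned to the other sites the range was 0.18 around the peptidyl transferase centre, 0.22 at the exit tunnel, 0.21 in the head and 0.28 in the platform. The range in the head covers no mitochondria specific gene. Genes of the bacterial kind numbered 38 of 45 on the wing side, and mitochondria specific genes 26 of 27, with *mRpS31* as the exception.

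Position and gene structure were compared as features that the choice of the genes did not use. The 72 genes were spread over the major arms, with 12 on 2L, 12 on 2R, 16 on 3L, 21 on 3R, 11 on X and 0 on chromosome 4. For 3R this is 29.2% of the members against 24.1% of the 9465 genes, and for 2R 16.7% against 20.5%. The median log2 ratio lay between -0.14 and -0.10 on each arm that holds members. The closest members were *mRpL3* and *mRpS30* on X, 23383 bases apart, and *mRpL24* and *mRpL28* on 2L, 28614 bases apart, and the other members lay further from each other.

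The genes were short and simple. The longest transcript had a median of 778.5 bases, against 2092 over protein coding genes, and 64 of 72 genes (88.9%) had at most 3 exons in it, against 45.0%. A single annotated transcript was found for 55 genes (76.4%, against 38.5%). Exons of 43 members overlap those of another gene, with a median of 6.97% of the exon bases. For 5 members the overlap is 30% or more, and their levels are uncertain. For overlaps on the opposite strand, strand use in the counting is not given in the sources used here. For overlaps on the same strand, strand use would not tell the genes apart. *mRpL53* lies wholly within exons of *CG33155* on the same strand (829 of 829 bases), *mRpL13* shares 236 of 671 bases with *CG10602* on the same strand, and *mRpS24*, *mRpS21* and *mRpS14* share 332 of 600, 228 of 475 and 255 of 797 bases with *TBC1d7*, *CG8870* and *Naa15-16* on the opposite strand. Without these 5 genes the median log2 ratio was -0.12.

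Other genes of the same pathway were set beside the ribosomal proteins. The translation factor genes had lower levels per kilobase, with a median of 268 over 9 genes in eye and 333 in wing discs, and their median log2 ratio was -0.12 with 6 of 9 on the wing side. The elongation factor gene *mEFTu1*, which brings aminoacyl-tRNA to the ribosome, was at 2326 per kilobase in eye and 2892 in wing discs, against 2367 and 3374 for *mRpL12*, and had a log2 ratio of -0.13. *mEFTu2* had mean normalized counts of 854 and 1171 and a log2 ratio of -0.27, and the initiation factor gene *mIF2* had 478 and 504 and a log2 ratio of 0.11. The ratios of the factors ran from -0.27 to 0.11, inside the range of the 72 ribosomal protein genes.

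Genes of mitochondrial protein import had a median log2 ratio of -0.13, with 14 of 14 on the wing side. The 61 nuclear genes of oxidative phosphorylation subunits had a median of -0.12, with 56 on the wing side, and their median level per kilobase was 2236 in eye and 2787 in wing discs. The 83 cytosolic ribosomal protein genes had a median of -0.11, with 78 on the wing side, at 54535 per kilobase in eye and 66545 in wing discs. Of the cytosolic genes 2 passed a log2 ratio of 0.32 toward the eye and 1 toward the wing, and of the import and oxidative phosphorylation genes 0 in both directions. The mitochondrial ribosomal proteins therefore shared their position relative to the median gene with these lists, and with the cytosolic ribosomal protein genes as the reference their median log2 ratio was -0.023.

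The RNAs of the mitochondrial genome, which the ribosome is built on and reads, lay elsewhere only in part. The large ribosomal RNA and some of the mRNAs lay inside the range of the mitochondrial ribosomal protein genes (-0.33 to 0.16). The small ribosomal RNA and the other mRNAs lay above this range. The list of these RNAs was added after the values had been seen. Of its 13 mRNAs 3 were on the wing side, and the median log2 ratio was 0.17, with *COX3* (52505 in eye and 47209 in wing discs) at 0.34 and *ND3* (1181 and 999) at 0.43. Past a log2 ratio of 0.32 in size, 2 of the 13 were higher in eye and 0 in wing discs, against 19.0% and 13.4% of all genes. The large ribosomal RNA had mean normalized counts of 617506 and 681173 and a log2 ratio of 0.04. The small ribosomal RNA was at 151 and 141, with a log2 ratio of 0.28. The counts of these ribosomal RNAs were thus far apart. How well counts of RNAs of the mitochondrial genome reflect their levels in cells was not tested. The part of the cell types that differ between the pools in these ratios was not tested.

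**Figure D4:**
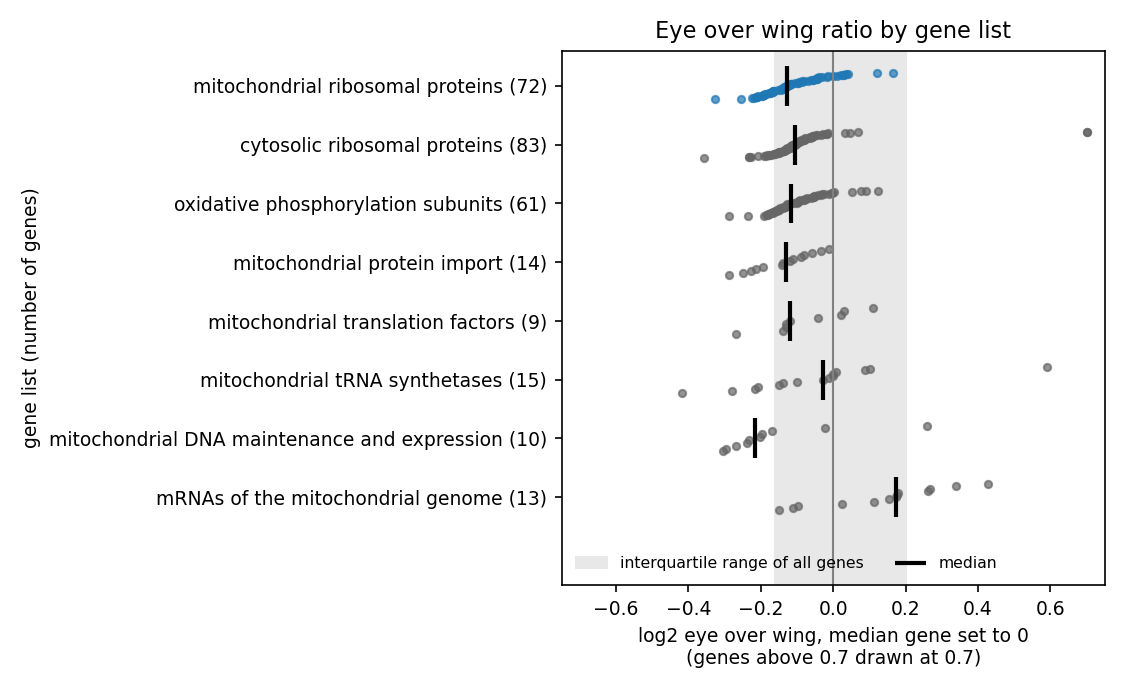
The log2 ratio of eye over wing mean normalized counts, with the median gene of the tables set to 0, for the 72 genes of the mitochondrial ribosome (blue) and 7 other gene lists (grey). Each point is 1 gene with a mean of at least 10 in both tissues, black bars are medians, the grey band is the interquartile range of all genes, and genes above 0.7 are drawn at 0.7. Most nuclear lists have medians near that of the mitochondrial ribosome (-0.13), whereas the mRNAs of the mitochondrial genome have a median of 0.17.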

How the data were processed

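RNA of 12 libraries of larval discs, 3 for each genotype and tissue, was sequenced by the authors. Transcripts were quantified by Salmon, summarized to genes through tximeta and normalized in DESeq2 (Salmon 1.1.0 and DESeq2 1.30.0 by the submitters' processing notes) on a BDGP6 release. The deposited signal used here is the mean over 6 libraries of counts scaled by the authors' size factors, not divided by gene length. Each tissue has its own table. The other deposited columns hold the fold change, error, statistic and p-values of the authors' genotype comparison and were not used. Columns of single libraries left out number 0.

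Means were divided by the longest annotated transcript of Ensembl's BDGP6.54 annotation, which held 17083 of the 17208 gene identifiers and gave positions. Eye over wing ratios were taken on the log2 scale and centred on the median of genes with a mean of at least 10 in both tissues. Thresholds were a log2 ratio of 0.32 in size and, as an alternative, a fold of 1.5. Named are the 6 highest and 6 lowest genes per kilobase and by ratio, the paralogs, *tko*, *bonsai* and members of fixed lists, and others were chosen after their values were seen. Members and lists were chosen with earlier results of these data known. The division into bacterial and mitochondria specific proteins was completed after the values were seen. Of the list symbols 8 matched no gene. Alternatives were other scalings, length measures, folds and minimums. Calculations were tested on simulated data. Python 3.11.15, numpy 2.4.6, pandas 2.3.3 and matplotlib 3.10.9 were used.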

Additional observations from a re-analysis of the deposited data

How the results depend on the processing

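The median log2 ratio of eye over wing of the 72 genes (-0.13) kept its sign under all alternatives run. It was -0.31 without scaling between the tables, -0.12 with the tables scaled to their sums, -0.12 with the median taken over genes with a mean of at least 100, -0.16 with all genes above 0, and, chosen after seeing the data, -0.023 with the cytosolic ribosomal protein genes as the reference and -0.12 without the members that overlap another gene by 30% or more. The number of members past a log2 ratio of 0.32 in size toward the wing (1) was 30 without scaling, where 27.7% of all genes passed, and 0 both with the median over genes of a mean of at least 100 and with the cytosolic reference, where 12.9% and 10.2% of all genes passed. Past a fold of 1.5 it was 0 in either tissue. The number past it toward the eye was 0 in all of these scalings, and 72 members remained with a minimum mean of 100 and with none. The number of members on the wing side (64) was between 63 and 72 under the planned scalings. With the cytosolic reference, chosen after seeing the data, it was 44. The share of all genes on the wing side is given for the main scaling only (50.0%). Per kilobase of coding sequence, the large over small subunit ratio was 1.04 in eye and 0.93 in wing discs (1.06 and 1.06 by transcript length), and, chosen after seeing the data, 1.22 and 1.15 with *mRpS18A* and *mRpS30* counted in the large subunit. The ratio of genes with a bacterial counterpart to mitochondria specific genes was 1.14 in eye and 1.14 in wing discs (1.16 and 1.13). The ratio of the 90th to the 10th percentile was 2.20 in eye and 2.19 in wing discs by coding length, and 2.99 and 3.16 with no division by length (1.93 and 2.12).

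No paired analysis was possible because the values used are means over the libraries of a tissue and carry no replicate numbers. For the same reason leaving out single libraries was not run, and the depth of single libraries is unknown. The planned shares of promoter motifs were not run, as sequences were not used here.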

Other observations

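The genes of mitochondrial tRNA synthetases, which charge the tRNAs that this ribosome uses, were spread over a wider range of ratios than its proteins. Their log2 ratios of eye over wing, relative to the median gene, ran from -0.42 to 0.59 over 15 genes, with a median of -0.03 and 11 genes on the wing side. *ValRS-m* had mean normalized counts of 575 in eye and 434 in wing discs, a log2 ratio of 0.59. *ProRS-m* had 307 and 465, a wing level 1.34 times the eye level after scaling to the median gene. Of 10 genes of the maintenance and expression of mitochondrial DNA 9 were on the wing side, with a median log2 ratio of -0.22, among them the DNA packaging gene *TFAM* (2339 and 3263, log2 ratio -0.30) and *bsf* (3282 and 4613, -0.31), whose protein binds mitochondrial mRNAs. The exception was *mtTFB2*, a factor that starts transcription in mitochondria, with 543 and 516 and a log2 ratio of 0.26.

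Regulators of nuclear genes for mitochondria also differed in direction. *Myc* had mean normalized counts of 5481 in eye and 8124 in wing discs (log2 ratio -0.38), *srl*, the *Drosophila* PGC-1 gene, 3154 and 4520 (-0.33), and *Dref* 4133 and 5591 (-0.25). *Ets97D* had 892 and 1091 (-0.11) and *M1BP* 1992 and 2247 (0.01). *ewg* had 3144 and 2537, with a log2 ratio of 0.49. The protein of *ewg* is a transcription factor needed in neurons and flight muscle. The values have no error, and the differences were not tested.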
